A study of Mus musculus with 6 samples.

Results

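The cytosolic ribosomal protein genes, 92 of the 47643 gene rows measured, were followed in NKT1 cells from mouse thymus. They were chosen by name: symbols that start with Rpl or Rps followed by a number, together with Rplp0, Rplp1, Rplp2 and Rpsa, leaving out pseudogene symbols that end in -ps and the Rps6k kinases. The rule took 77 genes that encode a subunit protein of the ribosome (46 of the large and 31 of the small subunit) and 15 further rows. These are paralogs with -like names, retrocopies, 6 rows annotated as pseudogenes and Rps19bp1, whose product binds a ribosomal protein but is not part of the ribosome. Coordinates are those of GRCm38.

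The cells are invariant natural killer T (iNKT) cells, which recognise lipids presented by CD1d through a semi-invariant T cell receptor, and NKT1 is their T-bet-positive, interferon-gamma-producing subset. Polyadenylated RNA was sequenced in 3 libraries of CD4-positive and 3 libraries of CD4-negative NKT1 cells, all from wild-type BALB/c thymus. No treatment, age, sex or number of animals is given in the labels used here, nor is it said whether each replicate is a separate animal. The p-values below therefore reflect only how far these libraries differ, which may be technical. The sample titles split the cells by CD4, while the text on the series names the sorted fractions by a marker written NKT1.4.

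Each ribosome holds a single copy of nearly every ribosomal protein, and cells produce the proteins in matched amounts, with unassembled copies degraded. Their mRNAs are among the most abundant and shortest of the cell and typically begin with a C followed by a run of pyrimidines, the terminal oligopyrimidine (TOP) tract, through which mTORC1 and Larp1 control their translation. T cells raise ribosome production when they are activated, and thymocytes are sensitive to the loss of single ribosomal proteins, Rpl22 among them.

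The starts of the genes are shown because the TOP tract is a feature that most members are known for and that the choice by name did not use. RefSeq promoter windows (GRCm38.p6) were matched by symbol for 67 of the 92 members. Only the transcribed strand was searched, for a single motif, a C followed by at least 4 pyrimidines. It began exactly at an annotated start in 14 of the 67 members (20.9%), against 3.01% of all 27025 genes with a window, and within 5 bases of a start in 30 members (44.8%) against 21.2%. Each sequence below runs from 20 bases before the annotated start through 15 bases from it, 5′ to 3′, with a pyrimidine run that begins within 5 bases of the start in capitals. A pyrimidine stretch that reached in from farther upstream was counted from its first C within those 5 bases, where the motif was met from there. Other runs were not counted and are in lower case.
Rps6, chr4:86857353-86857387, minus strand: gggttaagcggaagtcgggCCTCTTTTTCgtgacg
Rpl38, chr11:114668560-114668594, plus strand: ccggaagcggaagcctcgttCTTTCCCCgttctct
Rplp2, chr7:141447631-141447665, plus strand: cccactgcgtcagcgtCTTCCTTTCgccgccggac
Rps15a, chr7:118116133-118116167, minus strand: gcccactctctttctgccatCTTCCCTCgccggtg
Rps24, chr14:24490658-24490692, plus strand: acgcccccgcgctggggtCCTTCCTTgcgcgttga
Rps27, chr3:90213634-90213668, minus strand: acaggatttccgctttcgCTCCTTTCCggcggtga
Rps27rt, chr9:114982725-114982759, minus strand: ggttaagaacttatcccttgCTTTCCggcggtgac
Rps27l, chr9:66946066-66946100, plus strand: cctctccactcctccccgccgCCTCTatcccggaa
Rpl22l1, chr3:28805488-28805522, plus strand: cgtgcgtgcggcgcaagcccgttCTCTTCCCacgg
Rpl22, chr4:152324416-152324450, plus strand: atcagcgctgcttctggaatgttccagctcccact
Rpl36a, chrX:134585634-134585668, plus strand: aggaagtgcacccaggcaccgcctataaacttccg
Rpl36al, chr12:69184053-69184087, minus strand: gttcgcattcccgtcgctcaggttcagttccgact
In Rps6, Rpl38, Rplp2, Rps15a, Rps24, Rps27 and Rps27rt the run covered the annotated start. Rps27rt, a retrocopy of Rps27, carried a shorter run followed by the same ggcggtga as its parent. No run began within 5 bases of the annotated start in Rpl22, Rpl36a and Rpl36al, which says only that the letters are not at this place in the annotation. The stretches printed for Rpl22 and Rpl36a hold the motif farther from the start.

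The members took a large share of the RNA. The 6 libraries held 40480468 to 53145898 counts, and the members accounted for 10.4% to 17.3% of them. Of the 100 genes with the most counts, 46 were members, and the 10 most counted members made up 29.8% of all member counts. Per kilobase of transcript, in CPM (counts brought to a common library depth and scaled by the trimmed mean of M values, TMM), among the highest levels were those of Rplp1 with 5717, Rps12 with 5523 and Rps15 with 4700. The lowest tested levels on that scale were those of 3 pseudogene rows, Rpl6l (7.66), Rps3a3 (2.97) and Rps4l (2.06), and of the paralog Rpl39l (1.29). This order depends on the transcript taken for the length: per kilobase of coding sequence Rps24 came first with 12639, Rpsa second with 9222, and 39 members moved by more than 10 ranks. Rpl3l and Rpl10l, paralogs known from muscle and testis, had no count in any library, which allows 0.0564 to 0.0741 CPM per library. Rps12l1 had a few counts in CD4-negative replicate 3 alone.

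As a check of the labels, Cd4 stood at 508, 401 and 449.9 CPM in CD4-positive replicates 1, 2 and 3, against 16.0, 10.9 and 41.2 CPM in the CD4-negative ones (edgeR quasi-likelihood test, adjusted p = 0.033). All 7 iNKT and T cell markers (Cd3d and Zbtb16 among them) and all 7 NKT1 markers (Tbx21 and Il2rb among them) had counts in every library.

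As a share of the library, the members did not separate the CD4 groups. Their share was 15.1%, 10.4% and 11.9% of counts in CD4-positive replicates 1, 2 and 3, set against 11.9%, 10.6% and 17.3% in the CD4-negative replicates. CD4-negative replicate 3 and CD4-positive replicate 1 stood above the other 4 libraries, so the highest value of each group lay above the lower values of the other and the groups overlapped. The means were 12.5% ± 2.40 (SD, n = 3) and 13.2% ± 3.53 (SD, n = 3), a difference of -0.753 percentage points (exact permutation test, 2-sided, p = 0.7, where 3 against 3 allows no p below 0.1). In bulk RNA, fewer cells of a type and less RNA per cell cannot be told apart.

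The library names in the labels follow 2 schemes, a numbered one with replicates 1 and 2 of each group and another with replicate 3 of each group. Within the numbered scheme the mean share was 12.8% in CD4-positive and 11.2% in CD4-negative libraries. Within the other scheme, 1 library each, it was 11.9% and 17.3%, the opposite order. The relation between the groups thus did not hold within the naming schemes.

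Neither subunit separated the CD4 groups. For these shares and their ratio, all members except Rps19bp1 were sorted by name into 54 large-subunit and 37 small-subunit rows. Both sets include paralogs and pseudogene rows beside the subunit genes. Large-subunit genes took 6.73% ± 1.21 of CD4-positive and 7.10% ± 1.72 of CD4-negative counts (SD, n = 3 each, exact permutation p = 0.6). Small-subunit genes took 5.76% ± 1.20 and 6.14% ± 1.81 (SD, n = 3 each, exact permutation p = 0.7). The ratio of small- to large-subunit counts was 0.878, 0.828 and 0.853 in CD4-positive replicates 1, 2 and 3, against 0.839, 0.830 and 0.907 in the CD4-negative ones. It was highest in the same 2 libraries in which the shares were highest, and the group means of 0.853 ± 0.0248 and 0.859 ± 0.0419 (SD, n = 3 each) did not differ beyond the spread (exact permutation p = 0.8).

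**Figure D1:**
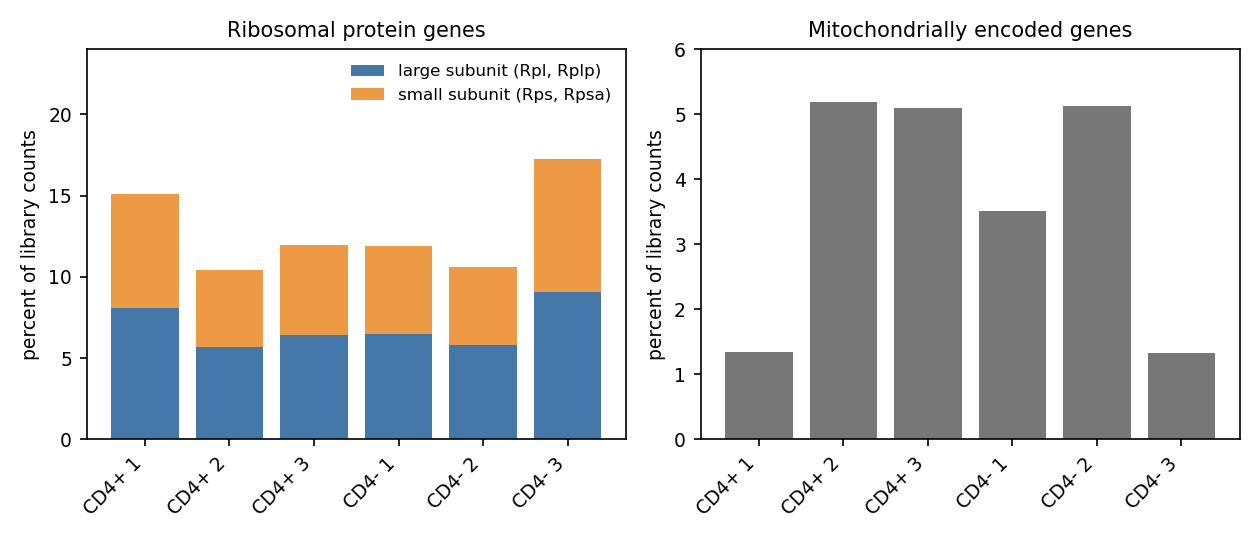
Percent of library counts in ribosomal protein genes (left, stacked by subunit) and in mitochondrially encoded genes (right) in each of the 6 libraries, with the group and replicate number on the horizontal axis. CD4+ 1 and CD4- 3 had the highest ribosomal protein shares (15.1% and 17.3%) and the lowest mitochondrial shares (1.35% and 1.33%).

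The same 2 libraries stood apart in mitochondrial share, and CD4-negative replicate 3 alone in further measures. Mitochondrially encoded genes took 1.35%, 5.19% and 5.09% of counts in CD4-positive replicates 1, 2 and 3, against 3.51%, 5.12% and 1.33% in the CD4-negative ones. CD4-negative replicate 3 also had the lowest total, the fewest genes with a count (13804, against 15320 to 16319 in the others) and the lowest TMM factor (0.947, against 0.986 to 1.02). Of other cell types, the 6 immature thymocyte markers summed to 25.7 to 138 CPM in CD4-positive and 42.5 to 208 CPM in CD4-negative libraries. None of them was at 0 throughout. Their sum was highest in CD4-negative replicate 3 and next in CD4-positive replicate 3, the 2 libraries that share the other naming scheme. The 5 erythroid markers summed to 276 to 367 and 283 to 701 CPM, again highest in CD4-negative replicate 3, with none at 0 throughout. The 7 B cell markers summed to at most 3.03 CPM with Pax5 at 0 in all libraries, and the 6 myeloid markers to at most 2.64 CPM. The 5 NK and innate lymphoid markers, several of which NKT1 cells also express, summed to 112 to 132 and 224 to 241 CPM, and the 6 stroma and epithelium markers to 33.2 to 37.1 and 19.3 to 20.96 CPM. Most of that last sum was Pecam1, at 30.6 to 33.8 and 15.2 to 16.7 CPM, while each of the other 5 stayed at or below 2.14 CPM. Which cells the Pecam1 counts came from was not tested. The part of these differences in the values of the ribosomal protein genes was not tested.

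Gene by gene, no ribosomal protein gene passed the test of CD4-positive against CD4-negative cells. Of the 92 members 89 passed the filter on low counts, and none was called by edgeR at an adjusted p under 0.05, where 27 of all 12760 tested genes (0.212%) were called. None reached an unadjusted p under 0.05, against 4.44% of all tested genes, and DESeq2 and limma-voom gave the same 2 counts of 0. The smallest unadjusted p, that of Rps4l, was 0.111, and every adjusted p rounded to 1. The log2 fold changes (CD4-positive minus CD4-negative) ran from -0.59 to 0.08 over the 89 members and from -0.27 to 0.08 over the 77 subunit genes. Their standard errors were 0.14 to 0.59, with a median of 0.27 against 0.26 over all tested genes.

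Most of these small differences had the same sign. The median was -0.10 over the members against -0.01 over all tested genes, and 78 members lay below 0 and 11 above. Members share libraries and are not replicates, so this is a description with no test. CD4-negative replicate 3 decided it: without that library the median was 0.14 and 82 of 89 members lay above 0. Leaving out CD4-positive replicate 1 gave -0.28, and leaving out CD4-positive replicate 2 gave 0.01, with 49 of 89 above 0.

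**Figure D2:**
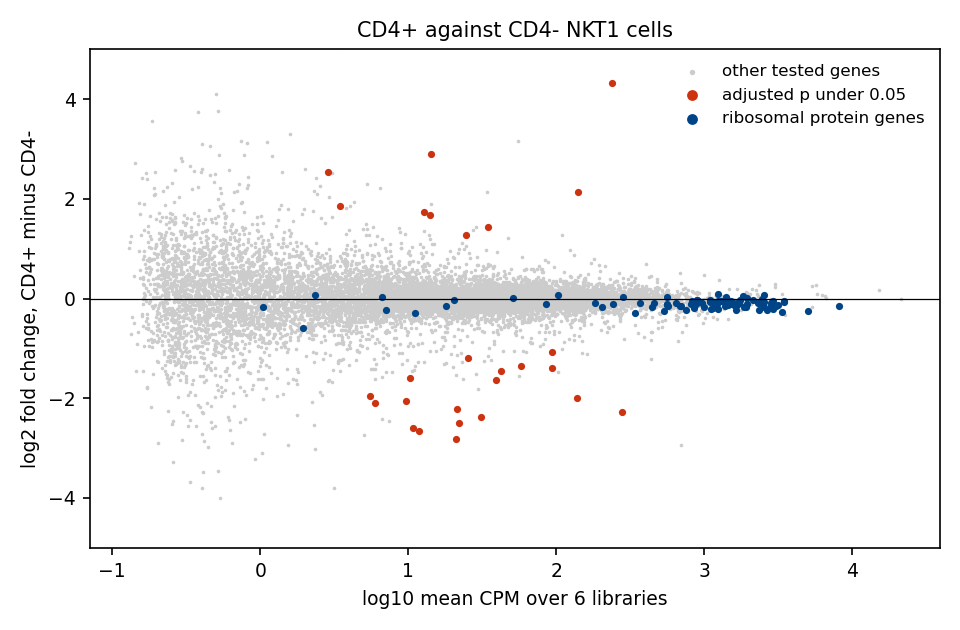
Log2 fold change of CD4-positive against CD4-negative cells (vertical axis) by the log10 mean CPM over 6 libraries (horizontal axis) for tested genes, with ribosomal protein genes in blue and genes called at an adjusted p under 0.05 in red; 3 genes lie beyond the axis limit of 5. The ribosomal protein genes lie between -0.59 and 0.08 and none is called.

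The groups failed to overlap for a single member. No member had all CD4-positive libraries above all CD4-negative ones, against 4.84% of all tested genes, and 1 of 89 had them all below, against 4.57%. That gene was Rps4l, a transcribed processed pseudogene of Rps4x at chr6:148354656-148355598 on the plus strand. It stood at 1.65, 1.29 and 1.70 CPM in CD4-positive replicates 1, 2 and 3, against 2.24, 1.80 and 2.98 CPM in the CD4-negative ones, a log2 fold change of -0.59 (SE 0.33). Its counts were whole numbers in every library and were at most 0.0883% of those of the gene and its parent together.

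The members lay on 19 chromosomes, 15 of them on chromosome 7 and 4 on X. Of the small-subunit proteins, Rpsa, also known as a laminin receptor and encoded at chr9:120127689-120132369 on the plus strand, shows the common pattern. Its level was 10097, 5514 and 7568 CPM in CD4-positive replicates 1, 2 and 3, against 6807, 6050.1 and 12935 CPM in the CD4-negative ones, with a log2 fold change of -0.15 (SE 0.36). CD4-negative replicate 3 was highest, CD4-positive replicate 1 next, and CD4-positive replicate 2 lowest. Rps24, which acts in the maturation of small-subunit rRNA, varied most among the subunit genes, with 6898, 3382 and 3493 CPM against 4264, 3312 and 8909 CPM. Its highest library was 2.69 times its lowest, both of them CD4-negative.

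Rps6, the substrate of the S6 kinases below mTORC1, stood at 4172, 2887 and 3229.9 CPM in CD4-positive and at 3248, 2796 and 4589 CPM in CD4-negative replicates 1, 2 and 3. Rps3, which also takes part in DNA repair, stood at 3525, 2437 and 3132 CPM against 3046, 2659 and 4306 CPM. Rps19, mutated in Diamond-Blackfan anaemia, stood at 1254, 746 and 786 CPM against 818, 758 and 1408 CPM. In each of these 3 genes the groups overlapped, CD4-negative replicate 3 was highest and CD4-positive replicate 1 next, with log2 fold changes of -0.05, -0.14 and -0.10. Rps27a, made as a fusion with ubiquitin, ran from 879 to 1558 CPM in CD4-positive and from 836 to 1890.0 CPM in CD4-negative libraries. Rps25, a protein used in internal ribosome entry, had the smallest p of the subunit genes below 0, with 878, 618 and 579 CPM against 748, 637 and 1041 CPM and a log2 fold change of -0.23 (SE 0.25). The pseudogene row Rpl37rt ran from 4.58 to 8.44 and from 6.69 to 8.47 CPM (log2 fold change -0.24, SE 0.26).

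Rps23, which sits at the decoding centre, was among the small-subunit proteins with the smallest p above 0. It stood at 1660.3, 1717 and 2210.1 CPM in CD4-positive and at 1783, 1726 and 1886 CPM in CD4-negative replicates 1, 2 and 3 (log2 fold change 0.05). CD4-positive replicate 3, not CD4-negative replicate 3, was highest, and the groups overlapped.

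Among large-subunit proteins, the acidic stalk that recruits elongation factors is formed by Rplp0, Rplp1 and Rplp2. Rplp0 stood at 2093, 1524 and 2217 CPM in CD4-positive and 1781, 1558 and 2487 CPM in CD4-negative replicates 1, 2 and 3. Rplp1 stood at 3446, 2083 and 2755 CPM against 2409, 2193 and 4231 CPM, and Rplp2 at 2470.3, 1410.0 and 1530.1 CPM against 1555, 1389.8 and 3124 CPM. Their log2 fold changes were 0.00, -0.09 and -0.17, with standard errors of 0.25, 0.32 and 0.37. Rpl12, at the base of the stalk, was among the few members above 0, with 2869.8, 2071 and 2846 CPM against 2177, 2078 and 3159.9 CPM and a log2 fold change of 0.07 (SE 0.24). The groups overlapped in all 4 genes.

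Rpl5 and Rpl11 bind Mdm2 together with 5S rRNA when ribosome assembly is disturbed. Rpl5 stood at 3225, 2395 and 2405 CPM in CD4-positive and at 2659.8, 2178 and 4095 CPM in CD4-negative replicates 1, 2 and 3. Rpl11 stood at 2258, 1454 and 1548 CPM against 1735, 1533 and 2682 CPM. Both were highest in CD4-negative replicate 3 and next in CD4-positive replicate 1, with log2 fold changes of -0.15 (SE 0.28) and -0.18 (SE 0.28). Rpl13a, a part of the interferon-gamma-activated inhibitor of translation, stood at 3290.4, 1798 and 2074 CPM against 2229, 1958 and 3828 CPM. Rpl38, known for its role in the translation of Hox mRNAs, ran from 305 to 441 and from 293 to 507 CPM.

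The members varied more between libraries of the same group than between the groups. The deviation of a gene in a library is its log2(CPM + 0.5) minus its mean over the 6 libraries. The median deviation of the 89 tested members was 0.25, -0.30 and -0.10 in CD4-positive replicates 1, 2 and 3, against -0.09, -0.26 and 0.49 in the CD4-negative ones. The group means of these medians were -0.05 ± 0.28 and 0.05 ± 0.40 (SD, n = 3 each, exact permutation p = 0.6). In CD4-negative replicate 3, 86 of 89 members lay above their own mean, and in CD4-positive replicate 1, 80 did. In replicate 2 of either group a single member did. The median deviation of all tested genes stayed between -0.02 and 0.02.

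Of the 77 subunit genes 68 were highest in CD4-negative replicate 3, as were 29.1% of all tested genes, and in 64 both that library and CD4-positive replicate 1 lay above all other libraries. The lowest value lay in replicate 2 of either group for 69 of them. The small-subunit genes had their median deviation at 0.50 in CD4-negative replicate 3 and the large-subunit genes at 0.49. Members with a pyrimidine run beginning within 5 bases of a start (27 subunit genes) and those with a window but no such run (30) had medians of 0.49 and 0.50 there.

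**Figure D3:**
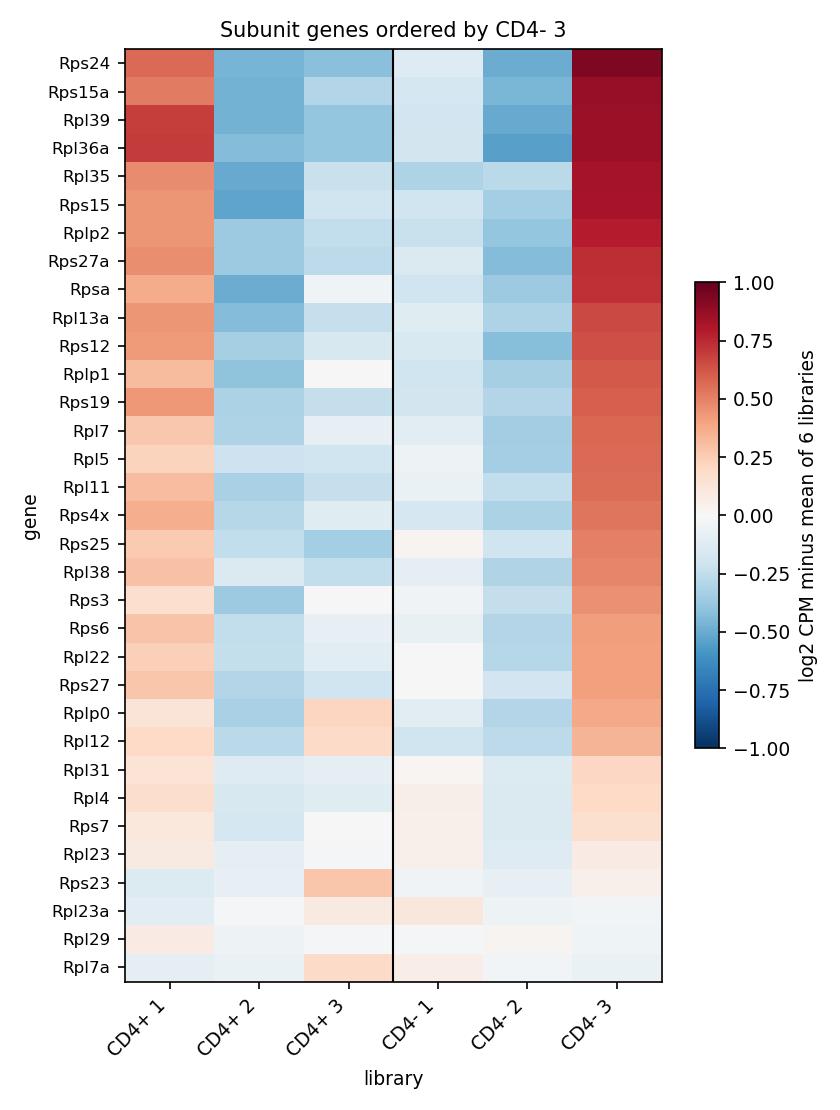
Deviation of 33 subunit genes named in the text (rows, ordered by their value in CD4- 3) in the 6 libraries (columns), as log2 CPM minus the mean of the 6 libraries, red above and blue below the mean. CD4- 3 is the highest library for 28 of these 33 genes, and CD4+ 2 or CD4- 2 the lowest for 29.

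The genes did not vary by equal amounts. The highest library exceeded the lowest by 1.09 times in Rpl29 and by 2.69 times in Rps24, with a median of 1.77 over the subunit genes, against 1.54 over 1898 other genes with at least 100 CPM. Rps24, Rpl36a (2.64), Rpl39 (2.57), Rps15 (2.56), Rps15a (2.54) and Rpl35 (2.52) had the largest ratios. Under 1.3 were 9 subunit genes, among them Rpl29, Rpl23a (1.16), Rpl23 (1.16), Rpl7a (1.22), Rps7 (1.26), Rpl31 (1.27) and Rpl4 (1.28). Rpl29 stayed between 49.7 and 54.4 CPM over the 6 libraries, both of them CD4-positive. Rpl23a, near the exit of the peptide tunnel, stood at 1981, 2103 and 2269 CPM against 2302, 2056 and 2097 CPM. Fractional counts, which arise where reads are shared between similar genes, were present in all 6 libraries for 67 of the 77 subunit genes, among them 8 of these 9 and 5 of the 6 with the largest ratios, so the levels of steady and variable genes alike are uncertain. These genes were singled out after their values were seen.

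Transcript length and base composition were set beside these deviations. Among the 89 members the correlation of the deviation in CD4-negative replicate 3 with log2 transcript length was r = 0.08 (rho = 0.04) and with GC percent r = 0.19 (rho = 0.22), across genes that share the library. Other protein-coding genes with transcripts no longer than the members' median of 838 bases (406 genes) had median deviations of 0.10, -0.19 and -0.07 in CD4-positive replicates 1, 2 and 3, against -0.06, -0.10 and 0.33 in the CD4-negative ones, the same order of extremes as the members at smaller size. Of those 406 genes 58.9% were highest in CD4-negative replicate 3. Other genes with at least 100 CPM had medians from -0.04 to 0.05. The part of transcript length, mitochondrial share and library yield in the members' pattern was not tested.

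Genes that work with the ribosome were counted from 10 lists, and no listed gene was called or reached an unadjusted p under 0.05. Parts of the ribosome whose names lie outside the rule were described first. Fau, which encodes the small-subunit protein eS30 fused to a ubiquitin-like protein, stood at 1369, 661 and 786 CPM in CD4-positive and at 871, 729 and 1849 CPM in CD4-negative replicates 1, 2 and 3. Gnb2l1 (Rack1), the small-subunit scaffold, stood at 2124, 1664 and 2242 CPM against 2019, 1810.3 and 2545 CPM. Both were highest in CD4-negative replicate 3.

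Elongation factors and other TOP mRNAs (18 genes, median log2 fold change -0.05, 6 above 0) had a median deviation of 0.37 in CD4-negative replicate 3 and 0.20 in CD4-positive replicate 1, and 17 of 18 lay above their mean in each of those libraries. Pabpc1, the cytoplasmic poly(A)-binding protein, went the other way, with 2027, 2783 and 2361 CPM in CD4-positive and 2488, 2472 and 1417 CPM in CD4-negative replicates 1, 2 and 3. Nap1l1, a histone chaperone with a TOP mRNA, stood at 348, 326 and 313 CPM against 295, 278 and 325 CPM. The mitochondrial ribosome (77 genes, median -0.12, 12 above 0) had 70 genes above their mean in CD4-negative replicate 3, with a median deviation of 0.32. Its genes with the smallest p were Mrpl41, with a log2 fold change of -0.35 (SE 0.27), and Mrpl55, with -0.35 (SE 0.24).

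In CD4-negative replicate 3, lists of genes that build ribosomes and the list of translation initiation factors had smaller median deviations. Ribosome biogenesis factors (41 genes, median log2 fold change -0.05, 14 above 0) had a median deviation of 0.10 in CD4-negative replicate 3. Among them Bysl, a factor of small-subunit assembly, ran from 58.7 to 70.1 and from 64.2 to 117 CPM, and Ltv1, an export factor of the pre-small subunit, from 38.5 to 52.9 and from 56.7 to 59.1 CPM, without overlap (log2 fold change -0.29, SE 0.17). RNA polymerase I and III genes (19, median -0.01, 8 above 0, with Taf1a at -0.36 and Polr3d at 0.16) had a median deviation of 0.11 there. Chaperones of ribosomal proteins (11, median -0.11, 3 above 0), which include Ltv1 and the member Rps19bp1 (log2 fold change -0.29, SE 0.23), had 0.16. Translation initiation factors (27, median -0.03, 10 above 0, with Eif2s2 at -0.15 and Eif4a2 at -0.15) had 0.20.

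Other lists were low in CD4-negative replicate 3. Controls of ribosomal protein synthesis through mTORC1, S6 kinase and Myc (24 tested of 25, median log2 fold change 0.04, 16 above 0) had a median deviation of -0.26. In this list Sesn3, a sestrin that restrains mTORC1, stood at 321, 366 and 359.9 CPM in CD4-positive and at 291, 289.7 and 283 CPM in CD4-negative replicates 1, 2 and 3, without overlap (log2 fold change 0.28, SE 0.14). Sesn1 stood at 59.0, 109 and 121 CPM against 62.4, 79.1 and 57.3 CPM (log2 fold change 0.54, SE 0.28). Neither gene passed the test over all genes. Termination and quality control factors (10, median 0.07, 7 above 0, with Etf1 at 0.10 and Gcn1l1 at 0.12) had a median deviation of -0.32. Genes of the p53 checkpoint on ribosome assembly (5, median -0.03, 2 above 0, with Mdm4 at -0.19 and Cdkn2a at 0.56, SE 0.69) had -0.50. That list is short, and Cdkn2a (0.18 to 0.91 CPM) and Cdkn1a (0.10 to 4.65 CPM) had low counts.

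**Figure D4:**
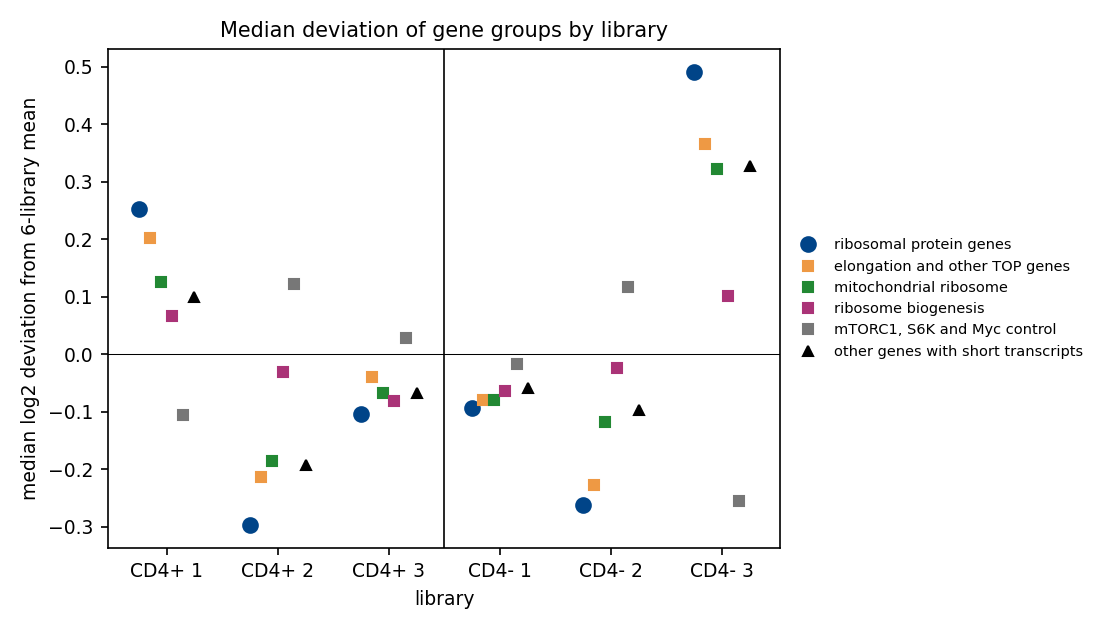
Median log2 deviation from the 6-library mean (vertical axis) of ribosomal protein genes (circles), of 4 further gene lists (squares) and of other genes with short transcripts (triangles) in each library (horizontal axis). Ribosomal protein genes reach 0.49 in CD4- 3, where elongation and other TOP genes reach 0.37, short transcripts 0.33 and mitochondrial ribosome genes 0.32, while the mTORC1, S6K and Myc list lies at -0.26.

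Some members have a paralog that can take their place in the ribosome or that is made in other tissues, and the share of the paralog among the counts of both genes does not depend on the scaling between libraries. The 8 fixed gene pairs are not all of this kind: Rps4l is annotated as a pseudogene of Rps4x, and Rpl7l1 is a nucleolar relative of Rpl7. In 6 of the 8 pairs the paralog had at least 20 counts in every library. Rpl22l1, whose mRNA Rpl22 is known to repress, took 15.5%, 15.7% and 16.0% of the counts with Rpl22 in CD4-positive replicates 1, 2 and 3, against 15.5%, 16.2% and 15.7% in the CD4-negative ones. Relative to its mean, this share was the steadiest of the 6. Its means were 15.7% ± 0.248 in CD4-positive and 15.8% ± 0.374 in CD4-negative libraries (SD, n = 3 each, exact permutation p = 0.7). Both genes were highest in CD4-negative replicate 3. Rpl22 itself ran from 379 to 529 and from 367 to 596 CPM, and Rpl22l1 from 70.6 to 96.7 and from 71.2 to 111 CPM.

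Rpl36al took 27.4% ± 3.67 of the counts with Rpl36a in CD4-positive and 29.3% ± 1.96 in CD4-negative libraries (SD, n = 3 each, exact permutation p = 0.6). Rpl7l1, a nucleolar relative of Rpl7, took 4.33% ± 0.428 and 3.94% ± 0.742 (SD, n = 3 each, exact permutation p = 0.5). Rps27l, a p53 target, took 1.55% ± 0.307 and 1.41% ± 0.160 of the counts with Rps27 (SD, n = 3 each, exact permutation p = 0.6). Unlike Rps27, which ran from 1114 to 1659 and from 1198 to 1813 CPM, Rps27l stayed at 20.3, 20.3 and 20.2 CPM in CD4-positive and at 19.8, 19.0 and 22.9 CPM in CD4-negative replicates 1, 2 and 3. The testis-enriched Rpl39l took 0.195% ± 0.0993 and 0.182% ± 0.0183 (SD, n = 3 each, exact permutation p = 1).

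The remaining pair was Rps4l with Rps4x. Rps4l took 0.0450%, 0.0554% and 0.0649% of the counts with Rps4x in CD4-positive replicates 1, 2 and 3, against 0.0883%, 0.0785% and 0.0720% in the CD4-negative ones. The groups did not overlap, and the exact permutation p of 0.1 is the smallest that 3 against 3 allows, or 0.6 after Benjamini-Hochberg adjustment over the 6 pairs. Adjusted p of the other pairs were 0.84 or 1. Reads that match both genes of a pair may have been divided by the authors' counting, so these shares are uncertain for closely similar sequences. Rpl22, Rps27, Rpl36a, Rpl39, Rpl7 and Rps4x all had fractional counts in all 6 libraries.

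**Figure D5:**
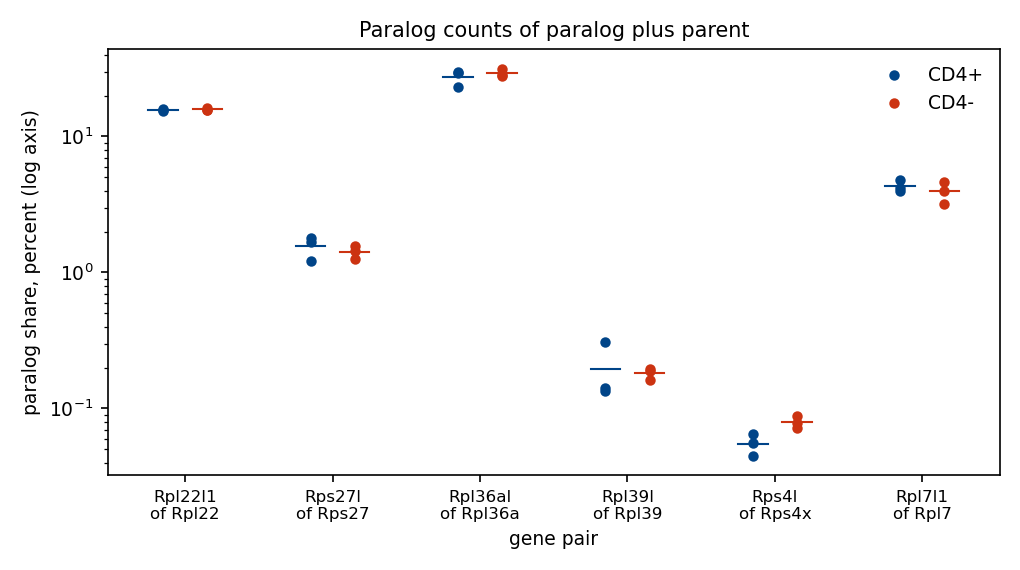
Counts of a paralog as a percent of the counts of paralog plus parent (vertical log axis) for 6 gene pairs (horizontal axis), with 3 CD4-positive libraries in blue, 3 CD4-negative libraries in red and short lines at the group means. The groups overlap in 5 pairs, and in Rps4l the CD4-positive libraries (0.0450% to 0.0649%) lie below the CD4-negative ones (0.0720% to 0.0883%).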

How the data were processed

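Polyadenylated RNA of 3 CD4-positive and 3 CD4-negative NKT1 libraries was sequenced in paired ends after stranded mRNA preparation, per the labels' protocols. The authors deposited unnormalised estimated counts per gene. STAR, Picard, RSEM and mm10 are named, without roles, in the submitters' processing notes; of the annotation and strand setting it can only be said: not given in the sources used here. Members and lists were chosen with earlier results of these data known. Counts were rounded and fitted for all genes in R 4.3.3 with edgeR 4.0.16 (filterByExpr, 12760 genes, TMM, robust quasi-likelihood F test on group, 2-sided, Benjamini-Hochberg at 0.05), after a test on simulated data. At these depths 1 count equals 0.0188 to 0.0247 CPM, and 0 counts allow up to 3, by counting error only. Fractional values differed from whole numbers by more than 1e-06. Lengths come from GENCODE M21 (GRCm38; 47224 identifiers matched), taking the transcript with the longest coding sequence.

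Named members are the 4 with the smallest p in each direction, the fixed paralog pairs, 13 genes fixed by role, the 4 highest and 4 lowest per kilobase of transcript and those with no count; each list gives its 2 smallest p. Some genes that the rule names are not reported here. Alternatives were other scalings (among them TMM without the members), filters, DESeq2 1.42.0, limma-voom (limma 3.58.1), leaving out each library, a batch term for the library naming scheme, and the replicate number as a block. Added after seeing the data were leaving out CD4-positive replicate 1 with CD4-negative replicate 3, scaling to summed member counts and levels per kilobase of coding sequence.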

Additional observations from a re-analysis of the deposited data

How the results depend on the processing

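No ribosomal protein gene and no gene of the 10 lists was called under any alternative run, and no value crossed a threshold. The median log2 fold change of the members was -0.07 to -0.10 under other scalings, filters, DESeq2, limma-voom and the naming scheme as a batch term, 0.003 when each library was scaled to its summed member counts, and -0.02 without CD4-positive replicate 1 and CD4-negative replicate 3 together (smallest adjusted p 0.648, Rpl41). Leaving out each library in turn gave -0.28 to 0.14, a difference in the share of library in members of -2.08 to 1.25 percentage points and a log2 ratio of small to large subunit of -0.03 to 0.03. Without both named libraries the share differed by -0.065 points. Of 37 named members 18 changed sign by more than their standard error under some alternative. The number of all genes called, 27, was 162 with DESeq2, 67 without a filter, 18 by library total, 11 with the naming scheme, 2 with member-sum scaling, 66 without both libraries and 0 to 44 with a library left out.

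Same-numbered libraries did not all deviate together. For replicates 1, 2 and 3 the correlations were -0.17, 0.58 and 0.02 over all tested genes. Over the members alone they were -0.77, 0.63 and -0.57. Not every library correlated best with its own number. Such correlations of deviations within each group cannot show whether same-numbered libraries share an origin. Whether the numbers pair the samples therefore stayed unresolved. The replicate block gave a median of -0.09 with 0 members and 0 genes called, and a share difference of -0.753 points.

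Precision is limited by 3 libraries per group: the median standard error of the members was 0.27 on the log2 scale. A call needs a difference well above its standard error. Rps4l, at -0.59 (SE 0.33), had an unadjusted p of 0.111 in the edgeR test. Ncr1, a gene outside the members, at -1.56 (SE 0.22), had an adjusted p of 0.054 in the same test. Differences well above 0.27 could therefore also have gone undetected for most members.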
